A study of Rattus norvegicus with 4 samples.

Results

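Microtubules are hollow filaments assembled from dimers of alpha- and beta-tubulin, and they serve as tracks for the motor proteins kinesin and dynein. The genes described here encode these tubulins, the gamma-tubulin complex that nucleates filaments, the cofactors that fold tubulin, the proteins that bind filaments or their growing ends, and the subunits of kinesin and dynein. In heart muscle cells microtubules bear load during contraction and carry mRNA, ribosomes and vesicles, and a denser microtubule network is a known feature of hypertrophied myocardium. Members were defined by gene symbol, with earlier results of these data known. They were probe sets with a single symbol starting with Tuba, Tubb, Tubg, Mapre, Klc, Dync, Dynl or Kif and a digit. Symbols naming a tubulin cofactor (Tbca to Tbce) or a structural microtubule-associated protein (Map1 to Map7) also counted. Kif11 and Kif2c were left out by that rule. This gave 58 genes and 78 probe sets, out of 10411 genes and 15866 probe sets in all. Each gene was represented by the probe set with the highest mean over the 4 arrays, and other probe sets are given beside it.

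The samples were primary ventricular myocytes from newborn rats, each giving total RNA for 1 Affymetrix array. The labels name no strain, genotype or number of animals. Control replicates 1 and 2 grew on uncoated plastic and fibronectin replicates 1 and 2 on dishes coated with fibronectin, a matrix protein that cells bind through integrins. All 4 cultures shared the same medium schedule of 24 h at 10% serum followed by 48 h free of serum. The question, from the title of the series, was which transcripts accompany hypertrophy on fibronectin. Whether the arrays of a group were separate cell preparations is not stated, so the errors here describe the spread between arrays, which may be technical.

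Values are log2 signals after quantile normalization, with a floor of 4.55 below which values have no order. The 11 ventricular myocyte markers on the array were all measured above the filter on dim probe sets, with a summed normalized intensity of 72869 to 75100 on the controls and 73243 to 75442 on fibronectin. The brightest genes lead that sum. By gene, 6 were higher and 5 lower on fibronectin, with a median log2 difference of 0.08 and a range from -0.94 for Ttn to 0.97 for Ryr2. The groups did not overlap for 1 higher and 3 lower markers, beside 20.5% and 17.3% of all named genes tested. Fibroblast markers, the other main cell type of such cultures, were lower on fibronectin in 8 of 10 genes, with a median log2 difference of -0.76 and summed intensities of 31864 to 48294 on the controls against 18306 to 30661. None of these fibroblast markers was at the floor on all arrays. Leukocyte markers had a lower mean on fibronectin in 4 of 6 tested genes (median -0.57), and the dim ones, Ptprc and C1qb, gave 0.47 and 0.30. Smooth muscle markers were lower in 2 of 5 (median 0.02). Of 5 endothelial markers on the array only Kdr was bright enough to test (0.25), and the dim ones ran from -0.51 for Tie1 to 0.24 for Emcn. Among all named genes tested 51.3% were higher. In bulk RNA fewer cells of a type and less RNA per cell cannot be told apart, and the part of the fibroblast signal in the values below was not tested. The 3' to 5' signal ratio of Gapdh, a sign of RNA integrity, was 1.64 and 1.15 on the controls and 6.02 and 3.52 on the fibronectin arrays. That of beta-actin was 1.46 and 1.4 against 13 and 6.29, while for hexokinase the groups overlapped. The Gapdh and beta-actin ratios thus cannot be told apart from the coating, and their part in the differences below was not tested. Fibronectin replicate 2 stood apart from the other arrays, with correlations of 0.775 to 0.794 over 9519 probe sets against 0.847 to 0.911 among the other three, so differences are also given with each array left out.

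Over all 4 arrays, alpha- and beta-tubulins and the cofactors that fold them had higher mean signals on fibronectin than on uncoated dishes in every tested gene, 7 of 7 tubulins and 4 of 4 cofactors, in size from 0.06 to 1.29 on the log2 scale. The tubulin count rests on single arrays, with 3 of 7 higher without fibronectin replicate 2 (Tubb2a, Tubb3, Tubb5 and Tubb6 were then lower) and 4 of 7 without control replicate 1. The cofactor count was 4 of 4 with any array left out except fibronectin replicate 1, without which it was 3 of 4. The motor genes went both ways, with 15 of 26 higher and 11 lower (10 higher without fibronectin replicate 1), and the plus-end protein Mapre1 was lower in each of its 3 probe sets. With all 4 arrays, the tubulin and cofactor directions were the same on the deposited scale and with arrays shifted to a common median. After Benjamini-Hochberg adjustment over all 9519 probe sets, limma called no member at 0.05, and it called 0% of the 7102 named genes tested. The lowest such adjusted p was 0.587 among the genes' representative probe sets and 0.458 among all named genes. At an unadjusted limma p under 0.05 there were 5 of the 49 tested members by representative probe set (10.2%), all higher on fibronectin. Among all named genes the share was 5.70% (213 genes higher and 192, or 2.70%, lower), and among all probe sets 6.50%. The dimmest probe set of Mapre1, not its representative, was also under 0.05 (limma's unadjusted p = 0.00127) and was lower, at -2.31. All differences below are thus descriptions of these 4 arrays. The direction and class of each tested member are shown in the plot of differences by class.

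**Figure D1:**
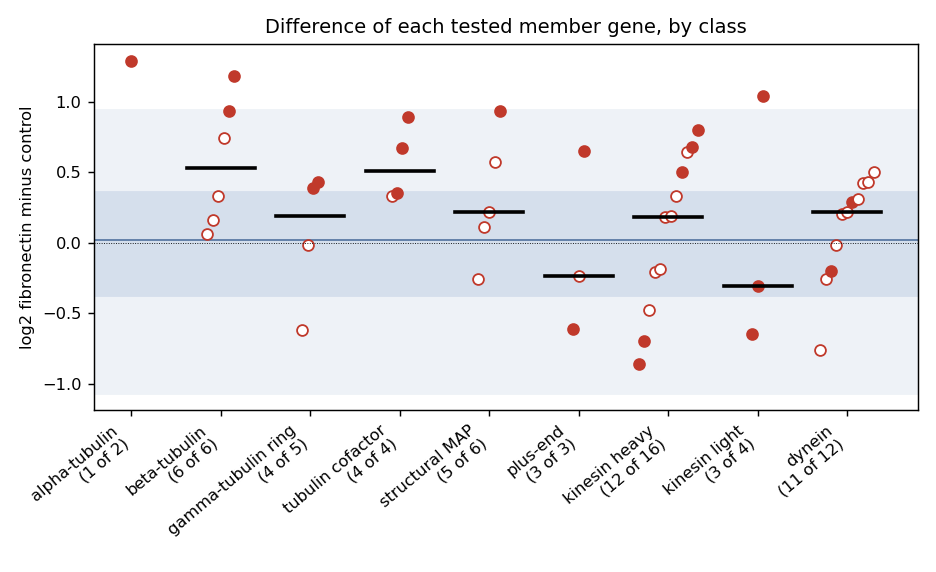
Log2 difference (fibronectin minus control, vertical axis) of each tested member gene, with classes side by side and the tested number of all member genes in brackets. Filled points are genes whose fibronectin and control arrays do not overlap, black bars are class medians for classes of at least 3 genes, the blue line is the median of all 7102 named genes (0.02), and the bands span their 25th to 75th (-0.38 to 0.36) and 5th to 95th percentiles (-1.07 to 0.94). Every tubulin and cofactor point lies above 0, from 0.06 for Tubb5 to 1.29 for Tuba4a.

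Of the 58 genes, 49 had a representative probe set above the filter on dim signals and were tested. The 9 others were the alpha-tubulin Tuba8, the ring-complex subunit Tubgcp3, the neuronal filament-binding protein Map2, the ciliary dynein subunit Dync2i1, the kinesins Kif12, Kif15, Kif18b and Kif1b, and the light chain Klc3. Map2 had both probe sets at the floor of 4.55 on all arrays except for 1 value of 4.58, so it was not measurable in these cultures. Over the 49 tested members 33 were higher on fibronectin (67.3%) and 16 lower, against 51.3% higher among all named genes tested. With 1 array left out, 28 to 33 members were higher, the fewest without fibronectin replicate 1. The share of all named genes was not taken there. Their median log2 difference was 0.29, against 0.02 over all named genes. The groups did not overlap for 21 members (42.9%), against 37.8% of all named genes. Both fibronectin arrays lay above both controls for 15 members (30.6%) and below them for 6 (12.2%), where all named genes gave 20.5% and 17.3%. On the deposited scale these counts were 15 and 2, where all named genes gave 22% and 10.5%, and with all arrays shifted to a common median 14 and 3, beside 22.1% and 14.1%. Both scalings moved all named genes toward higher values on fibronectin, to 57.1% and 53.7% higher, while 34 members were higher under each. Relative to each gene's control mean, the median of the members was 0.04 and -0.04 on the controls, 0.21 on fibronectin replicate 1 and 0.25 on fibronectin replicate 2.

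Tuba4a, an alpha-tubulin isotype whose coding sequence lacks the terminal tyrosine of most alpha-tubulins, had the largest difference among the tested members. Its signal (probe set 1371542_at) was 8.44 and 8.92 on the controls and 9.98 and 9.97 on the fibronectin arrays. The fibronectin arrays lay close together and above both controls, a 2.45-fold higher value, with a log2 difference of 1.29 (SE 0.32, limma's Benjamini-Hochberg adjusted p = 0.587). Leaving out any 1 array kept it between 1.05 and 1.53. Tuba8, the other alpha-tubulin with a probe set of its own, was left out as dim, at 5.59 and 4.55 on the controls and 5.86 and 4.83 on fibronectin. Those values overlap and reach the floor on control replicate 2. The abundant isotypes Tuba1a, Tuba1b and Tuba1c share 1 probe set, which by the rule is no member. That shared probe set read 12.86 and 13.28 on the controls and 13.06 and 13.67 on fibronectin, a difference of 0.29 (SE 0.30) with overlapping groups.

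The 6 beta-tubulin isotypes all had a positive difference, with a median of 0.53 that was -0.14 without fibronectin replicate 2. The groups were free of overlap in 2 of the 6, where 20.5% of all named genes tested were higher without overlap. Tubb2b, an isotype of developing neurons that other tissues also express, read 7.65 and 7.10 on the controls and 8.81 and 8.30 on fibronectin. Both fibronectin arrays exceeded both controls by more than the gap within either pair. The difference was 1.18 (SE 0.40), 2.26-fold, with limma's Benjamini-Hochberg adjusted p = 0.719. Tubb4b, a widely expressed isotype, read 9.86 and 10.62 on the controls and 10.93 and 11.42 on fibronectin. The groups did not overlap, and the difference was 0.93 (SE 0.35), 1.91-fold, with limma's Benjamini-Hochberg adjusted p = 0.731. It was 0.55 without control replicate 1. A further probe set that the annotation assigns jointly to Tubb4b and another gene is no member. It read 7.41 and 7.81 on the controls and 6.86 and 4.71 on fibronectin, a difference of -1.82 (SE 0.75) in the opposite direction.

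Tubb5, the main beta-tubulin of most tissues, was nearly level in its representative probe set. It read 11.80 and 11.94 on the controls and 11.71 and 12.14 on fibronectin, so the fibronectin arrays lay on either side of both controls. The difference was 0.06 (SE 0.27), and -0.23 (SE 0.35) in its second probe set. This value depended on scaling, being 0.49 on the deposited scale and 0.44 with arrays shifted to a common median, where the groups did not overlap. Tubb2a, the gene that lies next to Tubb2b in the rat genome, read 8.13 and 9.34 on the controls and 8.62 and 10.33 on fibronectin. Its groups overlapped, because both replicates 2 were high, and its difference was 0.74 (SE 0.61). Tubb6, an isotype of muscle and other tissues, and Tubb3, the isotype used as a marker of neurons, differed by 0.16 (SE 0.59) and 0.33 (SE 0.81). Both also had their high values on the arrays numbered 2, at 8.23 and 8.57 for Tubb6 and at 6.71 and 7.55 for Tubb3. The Tubb3 probe set belongs to an Affymetrix type whose probes match several transcripts, and its other probe set was at the floor on control replicate 1 and fibronectin replicate 1. Relative to the control mean the median of the beta-tubulins was -0.43 and 0.43 on the controls, -0.14 and 1.05 on fibronectin replicates 1 and 2. The class value therefore rests on fibronectin replicate 2, without which it was -0.14. Tubulin isotypes are near-identical over most of their coding sequence, and how far their probe sets cross-react was not tested.

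Neural and Schwann cell markers are given beside these isotypes because Tubb2b and Tubb3 are also neuronal genes. Of 9 such markers on the array only Prph and Uchl1 were bright enough to test. Both had a higher mean on fibronectin, with differences of 1.65 and 0.78. The Uchl1 arrays overlapped, at 7.79 and 6.58 on the controls and 7.40 and 8.54 on fibronectin. The dim markers went both ways, with -0.69 for Snap25, -0.38 for S100b and -0.37 for Nefl. Mbp, Nefm and Sox10 gave 0.01, 0.02 and 0.14, and Gap43 gave 1.18. The summed normalized intensity of the list was 387 to 554 on the controls, 535 on fibronectin replicate 1 and 834 on fibronectin replicate 2. None of the 9 was at the floor on all 4 arrays. The part of neural cells in the tubulin values was not tested.

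The promoters of 5 members are printed because these genes span the results, with Tuba4a, Tubb2b and Tubb4b higher on fibronectin without overlap, Tubb5 nearly level and Mapre1 lower. Each line holds the 250 bases before the gene's start in RefSeq on the GRCr8 assembly, 5′ to 3′ on the gene's strand. They lie at chr9:84162585-84162834 on the minus strand for Tuba4a, chr17:30952836-30953085 on the plus strand for Tubb2b, chr3:28438456-28438705 on the minus strand for Tubb4b, chr20:2917327-2917576 on the plus strand for Tubb5 and chr3:162678820-162679069 on the plus strand for Mapre1. Capitals mark matches on either strand to the CCAAT box (CCAAT), the TATA box (TATAAA) and the GC box (GGGCGG), which are common elements of basal promoters.
Tuba4a: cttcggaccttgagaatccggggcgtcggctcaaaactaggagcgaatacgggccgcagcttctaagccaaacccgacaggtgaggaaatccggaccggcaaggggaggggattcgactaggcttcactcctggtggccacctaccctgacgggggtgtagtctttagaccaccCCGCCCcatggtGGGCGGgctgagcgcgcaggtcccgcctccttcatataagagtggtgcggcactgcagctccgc
Tubb2b: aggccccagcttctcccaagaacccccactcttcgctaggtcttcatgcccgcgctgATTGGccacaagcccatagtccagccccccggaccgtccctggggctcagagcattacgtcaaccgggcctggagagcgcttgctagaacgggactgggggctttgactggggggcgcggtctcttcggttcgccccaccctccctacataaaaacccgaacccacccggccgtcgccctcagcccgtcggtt
Tubb4b: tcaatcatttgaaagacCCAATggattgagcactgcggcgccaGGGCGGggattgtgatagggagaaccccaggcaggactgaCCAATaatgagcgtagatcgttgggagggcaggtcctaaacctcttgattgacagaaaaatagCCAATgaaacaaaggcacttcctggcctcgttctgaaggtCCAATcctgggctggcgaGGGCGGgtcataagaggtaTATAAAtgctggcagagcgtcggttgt
Tubb5: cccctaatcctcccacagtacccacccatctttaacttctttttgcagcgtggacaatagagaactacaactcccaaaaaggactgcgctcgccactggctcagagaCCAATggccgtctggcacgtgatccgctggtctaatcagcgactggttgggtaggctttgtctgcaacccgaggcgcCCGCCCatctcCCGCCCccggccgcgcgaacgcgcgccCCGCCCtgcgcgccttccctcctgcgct
Mapre1: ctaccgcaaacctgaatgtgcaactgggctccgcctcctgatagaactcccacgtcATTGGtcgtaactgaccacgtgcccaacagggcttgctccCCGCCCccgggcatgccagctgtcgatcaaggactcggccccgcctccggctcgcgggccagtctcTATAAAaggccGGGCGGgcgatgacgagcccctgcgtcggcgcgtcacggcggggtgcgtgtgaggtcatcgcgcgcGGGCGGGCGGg

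Tubb4b held 4 CCAAT matches, 1 TATA match that began 27 bases before the start and 2 GC boxes. Tubb2b held a single CCAAT match and neither of the others, and Tuba4a held 2 GC boxes and neither of the others. The level gene Tubb5 had 1 CCAAT match and 3 GC boxes, and Mapre1 had 1 CCAAT, 1 TATA and 4 GC box matches, of which 2 overlap. The 3 genes that were higher without overlap thus shared no 1 of these letter strings. Promoters were found for 50 of the 58 members. CCAAT occurred in 42% of those and in 34.3% of the 27457 genes in the promoter table, GGGCGG in 62% and 32.4%, and TATAAA in 16% and 13.1%. Those 27457 genes were not limited to genes on the array or tested, so the compared sets are unlike. Of the 6 beta-tubulin promoters 5 held CCAAT and 5 held GGGCGG. A match is a string of letters, not evidence that a factor binds there.

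The tubulin cofactors, which fold newly made tubulin and join the alpha and beta chains into dimers, were higher in 4 of 4 genes with a median of 0.51. Relative to the control mean their median was -0.11 and 0.11 on the controls, 0.64 and 0.38 on fibronectin replicates 1 and 2, above both controls on each. Tbcb, which binds alpha-tubulin, read 8.93 and 8.84 on the controls and 9.72 and 9.38 on fibronectin. The controls lay close together and the fibronectin arrays above them, with a difference of 0.67 (SE 0.31), 1.59-fold, and limma's Benjamini-Hochberg adjusted p = 0.761. Tbcd, which binds beta-tubulin, read 7.08 and 7.36 on the controls and 7.65 and 8.58 on fibronectin. The groups did not overlap, but the difference of 0.89 (SE 0.45) was 0.43 without fibronectin replicate 2 and 1.36 without fibronectin replicate 1. Tbca, which captures beta-tubulin as it leaves the chaperonin, read 10.52 and 10.68 on the controls and 11.06 and 10.86 on fibronectin, a smaller difference of 0.35 (SE 0.27) without overlap. For Tbce, which acts with Tbcd in dimer assembly, the value on fibronectin replicate 2 of 7.05 fell between the controls at 6.96 and 7.43, and the difference was 0.33 (SE 0.49). The absence of overlap for Tbca, Tbcb and Tbcd held under all 3 scalings.

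Genes of gamma-tubulin and its ring complex, which nucleate new filaments, had no common direction. Tubgcp2, a core subunit, read 7.91 and 7.44 on the controls and 8.15 and 8.07 on fibronectin, a difference of 0.43 (SE 0.38) without overlap, which was 0.20 without control replicate 2. Gamma-tubulin itself, Tubg1, read 6.93 and 7.59 on the controls and 7.69 and 7.61 on fibronectin, so that its absence of overlap rests on a gap of hundredths above control replicate 2. Neither gene was free of overlap on the deposited scale or with arrays shifted to a common median. Tubgcp4 was level, with a difference of -0.02 (SE 0.44), and Tubgcp6 differed by -0.62 (SE 0.48) with overlapping arrays.

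**Figure D2:**
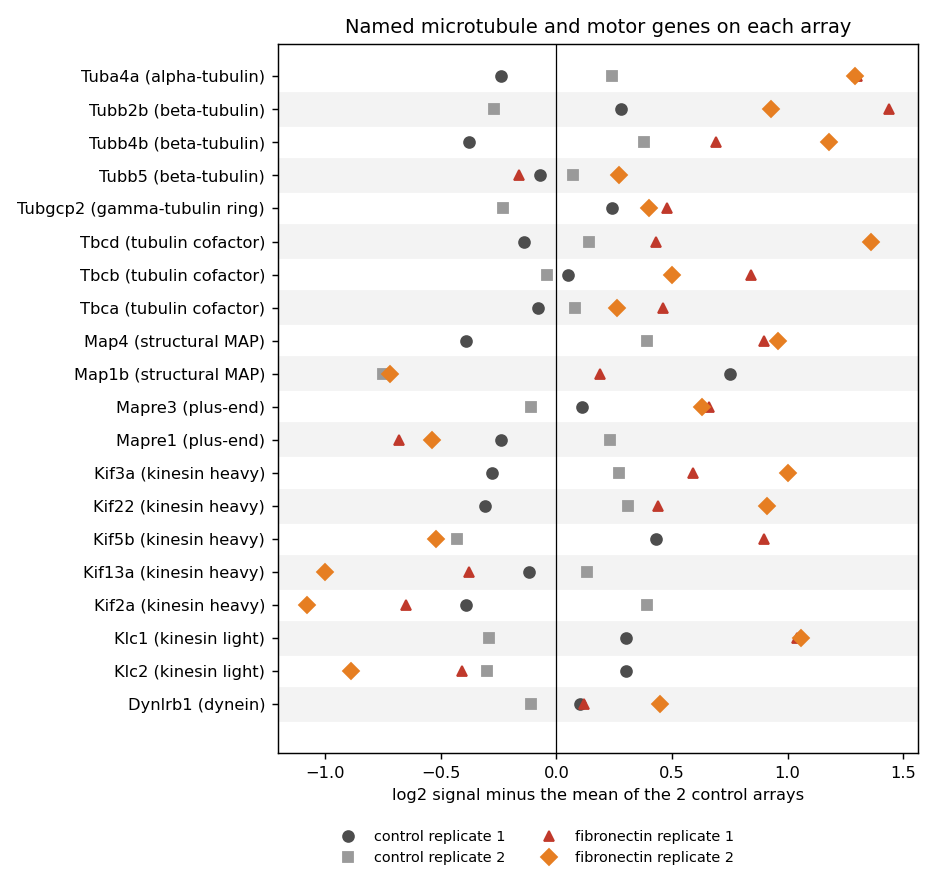
Log2 signal of the 20 named member genes on each array, minus the mean of the 2 control arrays of the same gene (horizontal axis), 1 row per gene with its class. Grey symbols are control and coloured symbols fibronectin arrays. For Tuba4a, Tubb2b, Tubb4b, Tbcd, Tbcb, Tbca, Tubgcp2, Map4, Mapre3, Kif3a, Kif22, Klc1 and Dynlrb1 both fibronectin arrays lie to the right of both controls, and for Mapre1, Kif13a, Kif2a and Klc2 to the left.

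Among the structural microtubule-associated proteins, which bind along filaments and stabilize them, 4 of 5 tested genes had a positive difference. Map4, the main such protein of heart and other non-neuronal tissues, had probe sets that disagreed. Its representative (1371607_at) read 7.85 and 8.63 on the controls and 9.14 and 9.20 on fibronectin, a difference of 0.93 (SE 0.37), 1.90-fold, with limma's Benjamini-Hochberg adjusted p = 0.750. The other probe set (1373268_at) read 8.97 and 8.51 on the controls and 8.83 and 8.47 on fibronectin, a difference of -0.10 (SE 0.35) with overlapping arrays. The choice between them was close, since their means over the 4 arrays were 8.71 and 8.70, so the data give no single direction for Map4. The representative's difference was 0.54 without control replicate 1 and 1.31 without control replicate 2.

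The other structural proteins overlapped between the groups. Map1b, known from growing axons and here the brightest of its class, read 9.73 and 8.23 on the controls and 9.17 and 8.26 on fibronectin, so both fibronectin values lay between the controls. Its difference of -0.26 (SE 0.55) turned to 0.49 without control replicate 1 and to 0.19 without fibronectin replicate 2. Its other probe set, too dim to test, had the opposite sign, at 5.01 and 5.52 on the controls and 5.81 and 5.93 on fibronectin. Map1a, a relative of Map1b, read 7.88 and 8.38 on the controls and 8.34 and 9.07 on fibronectin, a difference of 0.57 (SE 0.40). Its arrays were free of overlap on the deposited scale and with a common median, but not here. Map1s differed by 0.22 (SE 0.49) and the cold-stabilizing protein Map6 by 0.11 (SE 0.42), with 0.23 (SE 0.41) in a second tested probe set and -0.30 in a dim one that left the floor on control replicate 1 only.

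The Mapre genes encode the end-binding proteins EB1, EB2 and EB3, which track the growing plus ends of microtubules, and Mapre1 and Mapre3 went opposite ways. The representative probe set of Mapre1 (1373397_at) read 9.63 and 10.10 on the controls and 9.19 and 9.33 on fibronectin. Both fibronectin arrays lay below both controls, a difference of -0.61 (SE 0.31) or 1.53-fold lower, with limma's Benjamini-Hochberg adjusted p = 0.761. It was -0.38 without control replicate 2. A second probe set (1375525_at) read 9.47 and 9.83 on the controls and 8.85 and 9.42 on fibronectin, a difference of -0.52 (SE 0.34). The dimmest (1370792_at) read 8.14 and 8.68 on the controls and 5.78 and 6.42 on fibronectin. It gave the largest difference of any tested member probe set, -2.31 (SE 0.47), 4.95-fold lower, with limma's Benjamini-Hochberg adjusted p = 0.515. The 3 probe sets thus shared a direction but not a size, with -0.61 and -0.52 in the bright pair against -2.31 in the dimmest. Beside that value stand the higher 3' to 5' ratios of the fibronectin arrays, for beta-actin 13 and 6.29 against 1.46 and 1.4 on the controls, while that of hexokinase was 3.11 and 7 against 3.77 and 4.12. Their part in this result, as in the others, was not tested.

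Mapre3, the end-binding protein best known from muscle and brain, read 7.13 and 6.91 on the controls and 7.68 and 7.65 on fibronectin. The arrays of each group lay close together and the groups were separate, with a difference of 0.65 (SE 0.41), 1.57-fold, and limma's Benjamini-Hochberg adjusted p = 0.772. Leaving out 1 array gave 0.54 to 0.76, a range narrower than that of any other named gene but Tbca. Some of the probes in this Mapre3 probe set match other sequences, as its Affymetrix name marks. Mapre2 read 8.31 and 8.30 on the controls and 7.57 and 8.55 on fibronectin, on either side of the controls.

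**Figure D3:**
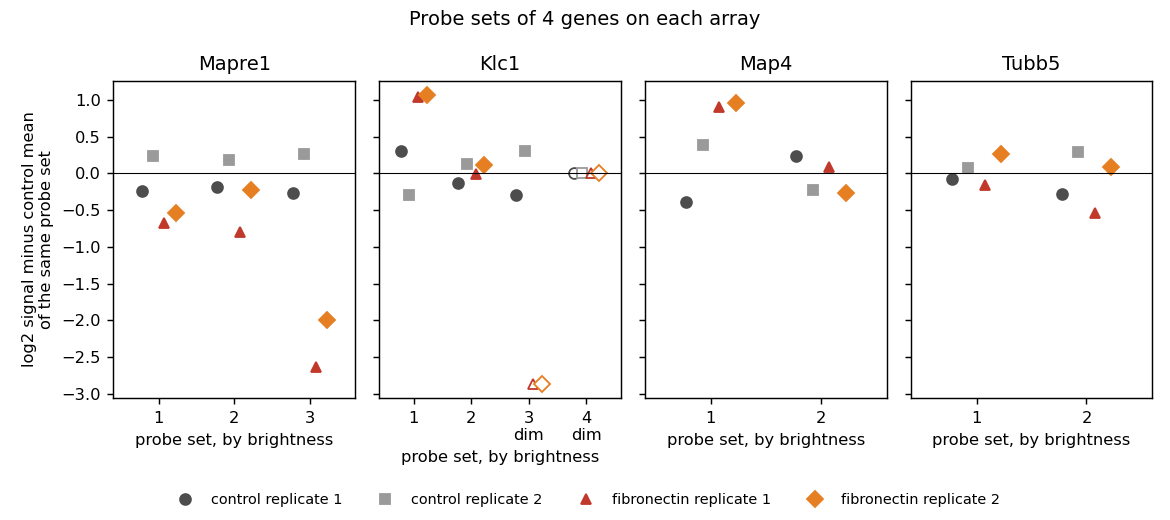
Log2 signal minus the control mean of the same probe set (vertical axis) for every probe set of Mapre1, Klc1, Map4 and Tubb5, ordered by brightness, on each of the 4 arrays. Open symbols mark a group whose 2 arrays are both at the floor, and "dim" marks probe sets that were not tested. The 3 probe sets of Mapre1 lie below 0 on both fibronectin arrays, while those of Klc1 and Map4 differ in direction or size.

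Kinesins walk toward the plus ends of microtubules, and their heavy chains hold the motor. Of 16 heavy-chain genes 12 were tested, 7 with a positive and 5 with a negative difference, and a median of 0.18. That sign is not stable, as the median was -0.20 with dim probe sets kept and -0.19 with 60% left out. Relative to the control mean the class median was 0.07 on each fibronectin array and 0.05 and -0.05 on the controls, while single genes ranged from -0.86 to 0.80. Kif5b, the heavy chain of conventional kinesin in most cells and here the brightest of its class, read 9.84 and 8.98 on the controls and 10.31 and 8.89 on fibronectin. The arrays numbered 1 were high and those numbered 2 low in both groups, and the difference of 0.19 (SE 0.51) turned to -0.52 without fibronectin replicate 1 and to -0.23 without control replicate 2.

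Among the heavy chains without overlap, Kif3a and Kif22 were higher on fibronectin. Kif3a, a motor subunit of kinesin-2 that serves cilia and vesicle transport, read 5.80 and 6.35 on the controls and 6.67 and 7.08 on fibronectin, a difference of 0.80 (SE 0.59) or 1.74-fold, and 0.52 without control replicate 1. Its partner subunit Kif3b was level, at 8.55 and 7.94 against 7.95 and 8.16, with a difference of -0.19 (SE 0.38), and the alternative partner Kif3c differed by 0.64 (SE 0.65) with overlapping arrays. Kifap3, the adaptor that joins the complex to cargo and no member, was lower without overlap at -0.52 (SE 0.42), but 0.03 in its other tested probe set. The kinesin-2 genes thus showed no shared shift.

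Kif22, a chromosome-binding kinesin of dividing cells, read 6.61 and 7.23 on the controls and 7.36 and 7.83 on fibronectin, a difference of 0.68 (SE 0.46) or 1.60-fold. It was 0.37 without control replicate 1. Kif20a, which acts in cytokinesis, followed the replicate number instead, at 7.63 and 5.66 on the controls and 7.85 and 6.10 on fibronectin. Markers of dividing cells, measured beside these 2 genes, were higher on fibronectin in 6 of 8 and free of overlap in 2. Among all named genes 51.3% were higher, and 20.5% higher without overlap. The summed intensities were 1422 to 1685 on the controls and 1892 to 2195 on fibronectin. Top2a and Ccnb1 were lower (-0.40 and -0.15), and Mki67 read 6.85 and 6.95 on the controls and 8.30 and 5.98 on fibronectin. None of the 8 markers was at the floor on all arrays, and their part in the Kif22 value was not tested.

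Kif2a and Kif13a were lower on fibronectin. Kif2a, which does not walk but takes subunits off filament ends, read 6.75 and 7.53 on the controls and 6.49 and 6.06 on fibronectin. Both fibronectin arrays lay below both controls, a difference of -0.86 (SE 0.55) or 1.82-fold lower, with limma's Benjamini-Hochberg adjusted p = 0.772. It was -0.48 without control replicate 2. Kif13a, a motor of endosomal vesicles, read 9.14 and 9.39 on the controls and 8.88 and 8.26 on fibronectin, a difference of -0.70 (SE 0.35) or 1.62-fold lower, and -0.38 without fibronectin replicate 2. On the deposited scale the Kif13a arrays overlapped, with a difference of -0.58. Kif1c, a vesicle motor, was free of overlap with a difference of 0.50 (SE 0.35), just short of the size set for naming, and it overlapped under both other scalings. The remaining tested heavy chains, Kif5a, Kif6 and Kif26b, overlapped, with differences from -0.48 to 0.18. A dim probe set of Kif5a was lower without overlap, at 6.43 and 6.03 on the controls and 5.46 and 4.55 on fibronectin, the last at the floor. The other probe sets of Kif26b gave -0.40 (tested) and -0.69 (dim), and a dim one of Kif13a gave -0.03. Kif26b and Kif3c each had a further probe set at the floor on all arrays.

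Kinesin light chains, which couple conventional kinesin to its cargo, also split. Klc1 (1370886_a_at) read 8.40 and 7.81 on the controls and 9.14 and 9.16 on fibronectin. Both fibronectin values were nearly equal and above both controls, a difference of 1.04 (SE 0.36), 2.06-fold, with limma's Benjamini-Hochberg adjusted p = 0.719. A second tested probe set of Klc1 was level, at 8.10 and 8.36 against 8.22 and 8.34, a difference of 0.05 (SE 0.35). Another, left out as dim over all arrays, read 7.11 and 7.72 on the controls and 4.55, the floor, for each fibronectin array, which is at least 7.29-fold lower. The last was at the floor throughout. The 4 probe sets thus covered higher, level and lower values, and the files do not say which Klc1 transcripts each one detects. Klc2 read 8.94 and 8.34 on the controls and 8.23 and 7.75 on fibronectin, a difference of -0.65 (SE 0.39) or 1.57-fold lower, and -0.35 without control replicate 1. Klc4 read 8.43 and 8.05 on the controls and 7.98 and 7.89 on fibronectin, a difference of -0.31 (SE 0.36). Both were free of overlap after quantile normalization but not under the other scalings.

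Cytoplasmic dynein carries cargo toward the minus ends, with heavy, intermediate, light intermediate and light chains, and its genes showed no common direction. Of 11 tested genes 7 had a positive and 4 a negative difference, with a median of 0.22 and a range from -0.76 to 0.50. The motor chain Dync1h1 read 9.54 and 9.73 on the controls and 10.01 and 9.21 on fibronectin, a difference of -0.02 (SE 0.35) with the fibronectin arrays on either side of both controls. The intermediate chains Dync1i1 and Dync1i2 differed by 0.42 (SE 0.58) and -0.26 (SE 0.35), and the light intermediate chains Dync1li1 and Dync1li2 by -0.76 (SE 0.52) and 0.50 (SE 0.52), all with overlap. The paired subunits of each kind therefore had opposite signs, without separation from the spread between arrays. A second probe set of Dync1li1 was at the floor on all arrays but fibronectin replicate 2, where it read 6.87.

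The 4 dynein light chain genes with probe sets of their own all had small positive differences. Dynlrb1, a light chain of the roadblock family and the brightest member of its class, read 10.35 and 10.14 on the controls and 10.37 and 10.70 on fibronectin. Its absence of overlap rests on fibronectin replicate 1 exceeding control replicate 1 by hundredths, and the difference was 0.29 (SE 0.28), or 0.12 without fibronectin replicate 2. Dynlt1 and Dynlt3, of the Tctex family, differed by 0.20 (SE 0.34) and 0.22 (SE 0.41). Dynll2, a light chain that also binds many other proteins, differed by 0.43 (SE 0.42) with overlap in its brighter probe set, and by 0.59 (SE 0.36) in its second, where it read 7.51 and 7.65 on the controls and 8.19 and 8.15 on fibronectin, free of overlap. The probe set of Dynll1, the close relative of Dynll2, is shared with another gene and gave -0.06 (SE 0.37). Of the ciliary dynein-2 subunits, Dync2h1 differed by 0.31 (SE 0.52) and Dync2li1 by -0.20 (SE 0.37).

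**Figure D4:**
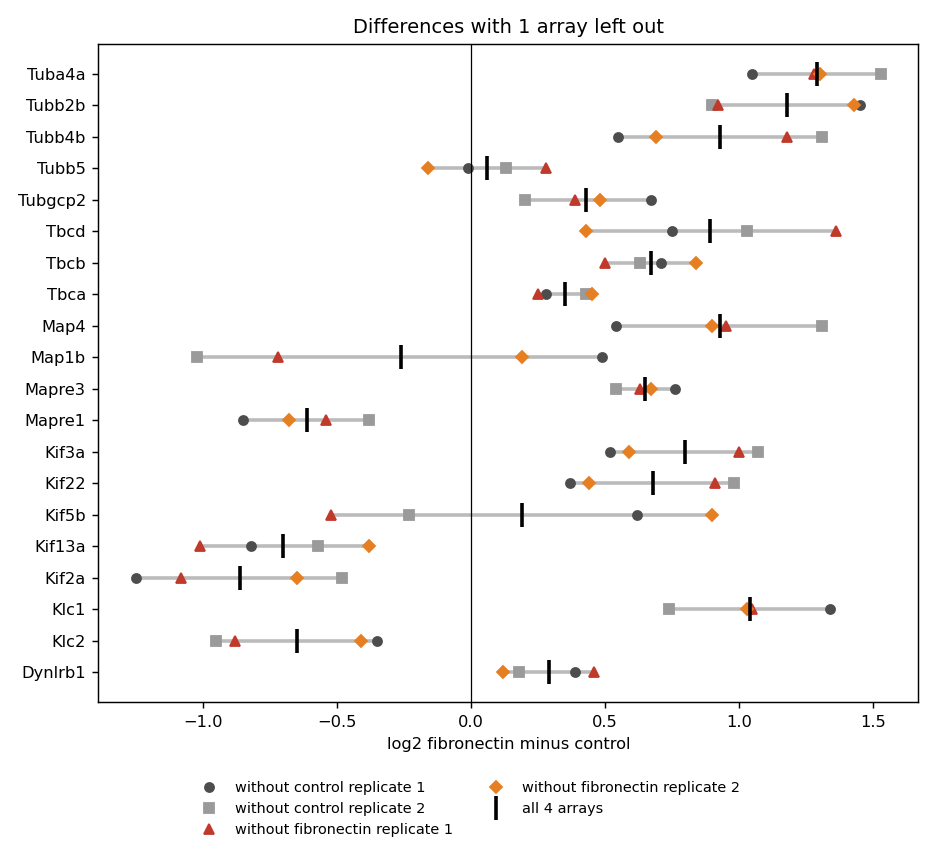
Log2 difference (fibronectin minus control, horizontal axis) of the 20 named member genes with all 4 arrays (black bars) and with each array left out (symbols), joined by a grey line over their range. The range crosses 0 for Tubb5, Map1b and Kif5b only, and for Tuba4a it runs from 1.05 to 1.53. In the other named genes the groups do not overlap, so their range could not cross 0.

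Of the 10 members that were higher without overlap by at least 0.5 (20.4%, against 13.1% of all named genes) 3 were tubulins and 2 were cofactors. The others were Map4, Mapre3, Kif3a, Kif22 and Klc1. The 4 that were lower by at least 0.5 (8.16%, against 11.3%) were Mapre1, Kif13a, Kif2a and Klc2. At a size of at least 1 there were 3 higher members, Tuba4a, Tubb2b and Klc1, or 6.12% against 3.51%, and 0 lower against 4.06%. Of 7 members with more than 1 tested probe set, 2 (Map4 and Tubb5) had probe sets of opposite sign, where this was so for 46.4% of all such named genes. These shares describe the list and were not tested.

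Genes that act on microtubules but are no members, from a list of 66, went both ways. Of 50 on the array 45 were tested, 26 higher and 19 lower on fibronectin with a median of 0.11 (relative to the control mean, 0.20 and 0.01 on fibronectin replicates 1 and 2), and 0 passed limma's threshold after Benjamini-Hochberg adjustment, while 3 had an unadjusted p under 0.05, beside 5.70% of all named genes. Both fibronectin arrays lay above both controls for 12 and below them for 6, beside 20.5% and 17.3% of all named genes. Stmn3, a stathmin that sequesters tubulin dimers, was the 1 gene higher by at least 1, at 5.44 and 4.55 on the controls and 6.49 and 8.52 on fibronectin. Control replicate 2 was at the floor there, so the difference of 2.51 (SE 0.84) has an uncertain size. Dctn4, a subunit of the dynein activator dynactin, and Mark4, a kinase that releases structural proteins from filaments, were lower by at least 1, at -2.13 (SE 0.74) and -1.50 (SE 0.81). Both were at the floor on fibronectin replicate 2, so their sizes are uncertain too.

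Enzymes and chaperones that handle tubulin can be set beside the tubulin values. Pfdn1, a subunit of the prefoldin complex that hands tubulin to the chaperonin, read 8.78 on both controls and 9.85 and 9.39 on fibronectin, a difference of 0.84 (SE 0.32) without overlap and with limma's Benjamini-Hochberg adjusted p = 0.731. The 4 other tested prefoldin subunits differed by 0.07 to 0.40 in their brightest probe sets, and a second tested probe set of Pfdn2 gave 0.69. Arl2, a small GTPase that works with the cofactors, differed by 0.77 (SE 0.56) without overlap. Vash1, which removes the terminal tyrosine of alpha-tubulin, read 8.56 and 8.62 on the controls and 8.66 and 9.50 on fibronectin, a difference of 0.49 (SE 0.38). Ttl, which adds that tyrosine back, read 7.34 and 7.49 on the controls but 8.03 and 4.71 on fibronectin, so its arrays gave no common direction. Ttc5, which binds nascent tubulin chains and triggers decay of their mRNA, differed by 0.45 (SE 0.58) without overlap. Also on the list, Hdac6 differed by 0.21 (SE 0.82) and Sirt2 by -0.41 (SE 0.45), both with overlap. Vash2 differed by 0.33 (SE 0.41) without overlap, and by -0.12 in its second tested probe set. These genes and Kifap3 were taken from the list after their values were seen.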

How the data were processed

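The deposited file gives signal intensities, unlogged, for each probe set on each array, and no header or label says how the authors computed or scaled them. Low values on each array were whole multiples of a step, 0.1 to 0.233 on 3 arrays and 1.95 on fibronectin replicate 2 (100% of values under 200 steps, within 0.05 steps), so dim values are coarsest there. The 9 control probe sets were left out, the other 15866 were quantile normalized in limma 3.58.1 (R 4.3.3), set to at least 23.4 (the 20th percentile over the 4 arrays) and log2 transformed. The dimmest 40% were left out, and 9519 were tested (lmFit, then eBayes with a trend on mean signal), two-sided, Benjamini-Hochberg adjusted over all of them. The test was tried on simulated data. Only 4 arrays limit the precision, and 2 against 2 cannot go below p = 0.333 in an exact permutation test. Gene names came from the platform annotation (12783 probe sets with 1 symbol, 312 with several, 2771 with none), and all 58 member genes were found by identifier in the GRCr8 gene table, with 0 changed symbols. The 6 probe sets that share a member symbol with other genes are no members. Named genes were members without overlap and with a log2 difference of at least 0.5, the brightest of each class, and those whose tested probe sets disagree with 1 of them at 0.5 or more. The members, lists and rules were chosen with earlier results of these data known. Errors are limma's moderated standard errors. Alternatives were other scalings, filters, floors and variance models, the mean over probe sets, the replicate number as a block, and each array left out, with normalization and filter kept.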

Additional observations from a re-analysis of the deposited data

How the results depend on the processing

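Of the 20 named genes 17 kept their direction under all scalings, filters and floors and with any 1 array left out. The groups of these 17 did not overlap, which most were named for, so leaving out 1 array could not turn their sign. The exceptions, with the array left out, were Tubb5 (-0.16 to 0.28), Map1b (-1.02 to 0.49) and Kif5b (-0.52 to 0.90). With another tested probe set, added after seeing the data, the value was -0.10 for Map4 and -0.23 for Tubb5. With 1 array left out, 0 to 276 probe sets passed the threshold over all genes (12 without control replicate 1, 276 without fibronectin replicate 1, 2 without fibronectin replicate 2), and 0 members did. Those fits assume that a lone array varies like the other group. The replicate number as a block gave 230 probe sets and 2 member genes, Tuba4a at 1.29 (limma's Benjamini-Hochberg adjusted p = 0.00754) and Tubb4b at 0.93 (adjusted p = 0.0252), and also the dimmest probe set of Mapre1 at -2.31 (adjusted p = 0.00408). Deviations of equal numbers correlated at 0.271 over probe sets, but with 2 pairs and no label the numbers are not shown to pair the arrays. Members without overlap ran from 19 to 27 higher and 8 to 15 lower against a lone array. A lone array overlaps the other group less readily in any gene. The share of all named genes was not taken with 1 array left out. Those counts therefore cannot show whether the members differ from other genes. With all arrays, the members lower without overlap were 2 on the deposited scale and 3 with a common median. With 1 array left out the class medians ran from -0.14 to 1.05 for beta-tubulins, -0.07 to 0.39 for dynein, 0.03 to 0.28 for the ring complex, -0.09 to 0.24 for heavy chains, -0.49 to -0.12 for light chains, -0.68 to 0.25 for plus-end proteins, 0.07 to 0.49 for structural proteins and 0.38 to 0.64 for cofactors, and over all members from 0.08 to 0.32. With dim probe sets kept they were -0.02 for the ring complex, -0.20 for heavy chains, 0.26 for light chains and 0.22 over all members. With 60% left out they were -0.19 for heavy chains and 0.21 over all members, and with an offset of 50 and no floor 0.21 over all members. Under the filters the genes entering a median change, and for the rest the cause was not tested. Signals near the floor limit what dim members can show.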
